A study of Mus musculus with 12 samples.

Results

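Cytosolic ribosomal protein genes were followed in mouse brain after photodynamic therapy. They were taken by gene name from the deposited table: names that start with Rpl or Rps and a number, the Rplp genes and Rpsa, without the Rps6k kinases and without pseudogenes whose names carry "-ps". The rule found 93 genes of the 54532 in the table, 55 named for the large subunit and 38 for the small subunit, and 88 of them passed the filter on low values (above 0.5 FPKM in at least 3 of 12 libraries). FPKM are fragments per kilobase of gene length, scaled by a total that the authors set for each library and that differs from its summed reads. GENCODE release M21 classes 86 of the 93 as protein coding and 7 as pseudogenes (Rps3a2, Rps3a3, Rps4l, Rps12l1, Rpl6l, Rpl32l and Rpl37rt), and a few others are paralogs or carry a ribosomal protein name without being part of the ribosome, such as Rps19bp1.

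Brain tissue gave 12 RNA libraries in 4 groups of 3: brains at 1.5 h, 12 h and 48 h after treatment, and controls. Treated mice had an injection of 5-aminolevulinic acid at 20 mg/kg, a precursor that cells turn into the light-sensitive pigment protoporphyrin IX, and 30 min later 635 nm laser light at a labelled 20 J/cm2. The controls carry PBS in their titles and the word untreated in their treatment label, which leaves unsaid whether those mice had light or an injection. All brains were perfused with 0.9% NaCl. Strain is ambiguous, since BALB/c and C57BL/6 both appear on every sample, and brain region, age, sex and time of day are not given. Markers of neurons and astrocytes were above 1 FPKM in every library for 8 of 8 and 5 of 5 genes.

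Each cytosolic ribosome is built from ribosomal RNA and near-equal amounts of each ribosomal protein, so the genes of these proteins are usually transcribed together and at high levels. Many of their mRNAs begin with a C followed by an uninterrupted run of pyrimidines, the terminal oligopyrimidine (TOP) motif, through which the mTOR pathway and the protein LARP1 set their translation and stability. Ribosomal protein mRNAs are short, and mammalian genomes hold many processed pseudogenes copied from them, which matters wherever short reads are assigned to genes.

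RefSeq promoter windows (build GRCm38.p6, 250 bases before to 50 bases after the annotated start) were found for 68 of the 93 genes, 80 windows in all. A C at the start that opens a run of at least 5 pyrimidines stood in 18.8% of these windows, against 2.51% of all 32851 windows. The letters CCGGAAG, the core recognised by ETS-family factors, were present on either strand in 33.8% of the windows, against 8.86% of all windows. TCTCGCGA was present on either strand in 15% against 0.995%, and TATAAA in 10% against 13.6%. Read on the other strand, CCGGAAG begins with pyrimidines and can share bases with a pyrimidine start, and 8 of the 15 windows with a pyrimidine start also held CCGGAAG. An annotated start that is a few bases off hides a TOP motif, so these shares describe the annotation. To show what such a start looks like, 5 genes with one are given as 10 bases before and 20 bases from the start, with the run in capitals. They lie at chr4:86857348-86857377 (minus strand) for Rps6, chr14:18270967-18270996 (minus) for Rpl15, chr2:39005112-39005141 (minus) for Rpl35, chr7:4792955-4792984 (plus) for Rpl28 and chr17:27635225-27635254 (minus) for Rps10.
Rps6: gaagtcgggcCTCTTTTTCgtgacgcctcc
Rpl15: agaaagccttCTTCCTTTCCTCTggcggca
Rpl35: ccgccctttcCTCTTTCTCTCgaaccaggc
Rpl28: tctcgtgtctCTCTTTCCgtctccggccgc
Rps10: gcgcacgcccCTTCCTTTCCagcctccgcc

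Rps27 and Rps27rt are given because their transcripts are nearly the same letters, which bears on several values given later. The lines give the first 30 bases from each annotated start, again with the pyrimidine run in capitals, at chr3:90213619-90213648 (minus strand) for Rps27 and chr9:114982710-114982739 (minus) for Rps27rt.
Rps27: CCTTTCCggcggtgacgacctccctacgag
Rps27rt: CTTTCCggcggtgacgacctccctacgaga
After the first base of Rps27 the letters are the same. Over their whole transcripts of 345 and 374 bases, 341 bases aligned with 100% identity and no gap.

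The 1.5 h libraries did not form a uniform group. Reads assigned to the 93 genes made up 4.19%, 1.11% and 2.92% of all reads in 1.5 h replicates 1, 2 and 3, against 1.15%, 1.20% and 1.12% in control replicates 1, 2 and 4. Replicates 1 and 3 stood far above every control, and replicate 2 lay at the control level. Reads of the mitochondrial genome moved with them, at 12.4%, 4.16% and 9.14% in 1.5 h replicates 1, 2 and 3 against 4.16% to 6.02% in controls. So did the slope of a library's log2 values on gene length, which was -0.104, 0.028 and -0.060 per doubling of length in 1.5 h replicates 1, 2 and 3 and between 0.027 and 0.041 in controls: in replicates 1 and 3, short genes were higher and long genes lower. Red blood cell markers summed to 365, 14.4 and 11.8 FPKM in 1.5 h replicates 1, 2 and 3 and to 0.78 to 30.1 FPKM in controls. Only replicate 1 of this group stood above the controls by this sum, and Alas2 was at 0 in 1 of the 12 libraries. The part of depth, RNA quality or tissue makeup in the difference between the 1.5 h libraries was not tested. Total reads ranged from 15348579 to 17444654 per library.

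**Figure D1:**
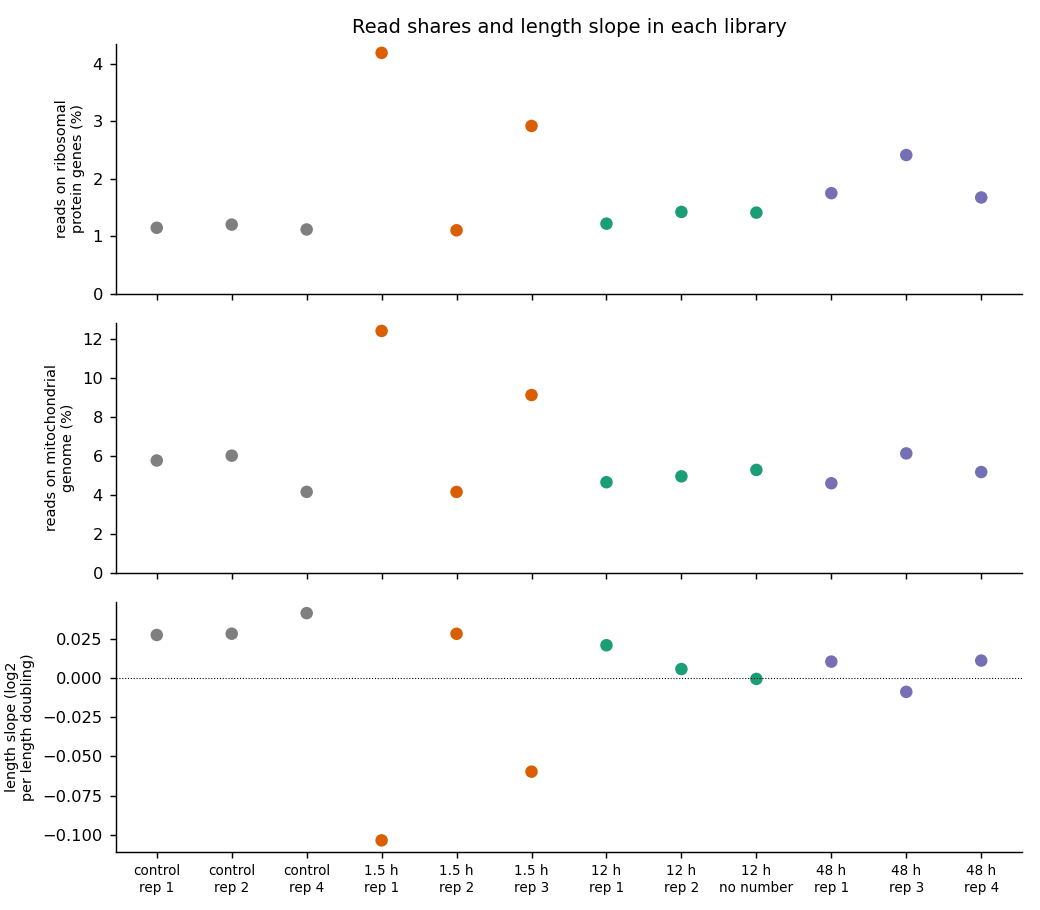
Share of reads on the 93 ribosomal protein genes (top, percent), share on the mitochondrial genome (middle, percent) and slope of log2 values on gene length (bottom, log2 per doubling of length) in each of the 12 libraries. Replicates 1 and 3 of the 1.5 h group reach 4.19% and 2.92% in the top panel, while replicate 2 lies with the controls at 1.11%.

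The ribosomal protein genes moved together. Across the 12 libraries, 73 of 88 had a Pearson correlation over 0.9 with the median of the other members on the log2(FPKM + 1) scale, and the median was 0.982, a description of libraries that also share the differences in length slope. The median member was 2.23, 0.03 and 1.43 above its control mean on the log2 scale in 1.5 h replicates 1, 2 and 3, and 88, 48 and 87 of the 88 members were above their control mean there. In the 12 h libraries the median member was 0.21, 0.41 and 0.36 above its control mean (replicates 1 and 2 and the library without a matching number), with 77, 84 and 84 members above. In 48 h replicates 1, 3 and 4 it was 0.41, 1.0 and 0.43 above, with 80, 88 and 83 members above. All 6 libraries of the later times lay above all 3 controls by this measure, whose medians were -0.00, 0.08 and -0.10. The length slope moved with these values too: it was 0.021, 0.006 and -0.001 per doubling of length in the 12 h libraries and 0.010, -0.009 and 0.011 in 48 h replicates 1, 3 and 4, all 6 below the control range of 0.027 to 0.041 and lowest in 48 h replicate 3, which had the highest member values. Its part in them was not tested.

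**Figure D2:**
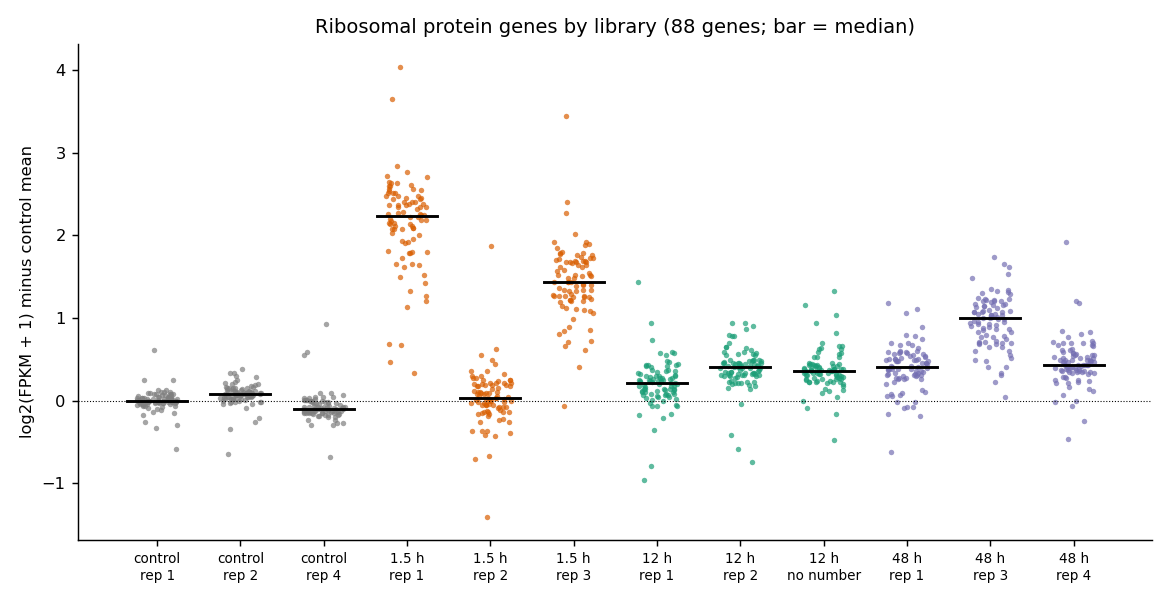
Difference of each of the 88 tested ribosomal protein genes from its mean over the 3 controls, on the log2(FPKM + 1) scale, for each library, with points for genes and a bar for their median. Medians reach 2.23 and 1.43 in 1.5 h replicates 1 and 3, 0.03 in replicate 2, 0.21 to 0.41 at 12 h and 0.41 to 1.0 at 48 h.

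Members of both subunits had high levels. In controls, 25 members were above 100 FPKM. Rplp1, an acidic protein of the stalk that recruits elongation factors, was highest at 837 ± 145 FPKM (SD, n = 3), followed by Rps15 of the small subunit at 446.6 ± 43.2 FPKM and Rpl36 of the large subunit at 289.0 ± 34.5 FPKM. Rps15 and Rpl36 did not overlap with each other or with Rplp1 in any control. The order depends on the length each value is divided by. The deposited lengths equal the summed exons of all transcripts in GENCODE M21 for 89 of 93 genes, with a median of 1659 bases, while the principal mRNA of the 86 protein-coding genes had a median of 705 bases. The deposited length was a median of 2.33 times the mRNA length and over 3 times for 27 genes, so FPKM understate these genes beside genes with a single transcript form. Per kilobase of principal mRNA, Rplp1 still ranked 1, and Rpl41, a very short basic protein, ranked 2 where the deposited length gave it rank 4. Ranks on both length scales had a Spearman correlation of 0.829 across 86 genes. Small nucleolar RNA genes lie inside 30 of the 93 genes.

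At the other end, 11 tested protein-coding members had under 10 FPKM in controls and nearly all of them encode core ribosomal proteins: Rpl13a, Rpl21, Rpl24, Rpl26, Rpl29, Rpl30, Rpl35a, Rpl36al, Rps2, Rps10 and Rps18. Rpl36al is a paralog of Rpl36a. The principal mRNAs of the 86 protein-coding members were compared with GENCODE M21 transcripts of all pseudogenes in the table. With at least 95% identity over 200 bases (or over 80% of a shorter mRNA), 568 pseudogene rows resembled 1 of 75 members, and these rows held 0.162% to 0.561% of all reads per library. In controls, the 11 low members held a median of 24.6% of the reads of the gene and its copies together (range 1.94% to 96.2%), and 8 of 11 were under 50%. The 72 other tested protein-coding members held a median of 98.3%, and 1 of 72, Rpl17, was under 50%, at 14.8%. Rpl26, a large subunit protein, had 223 control reads beside 11251 on its copies, chiefly on Gm15772, which matched it at 99.54% over 438 bases and stood at 488 ± 11.1 FPKM in controls. For Rps2, of the small subunit, the row held 410 control reads beside 14607 on 31 copies.

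**Figure D3:**
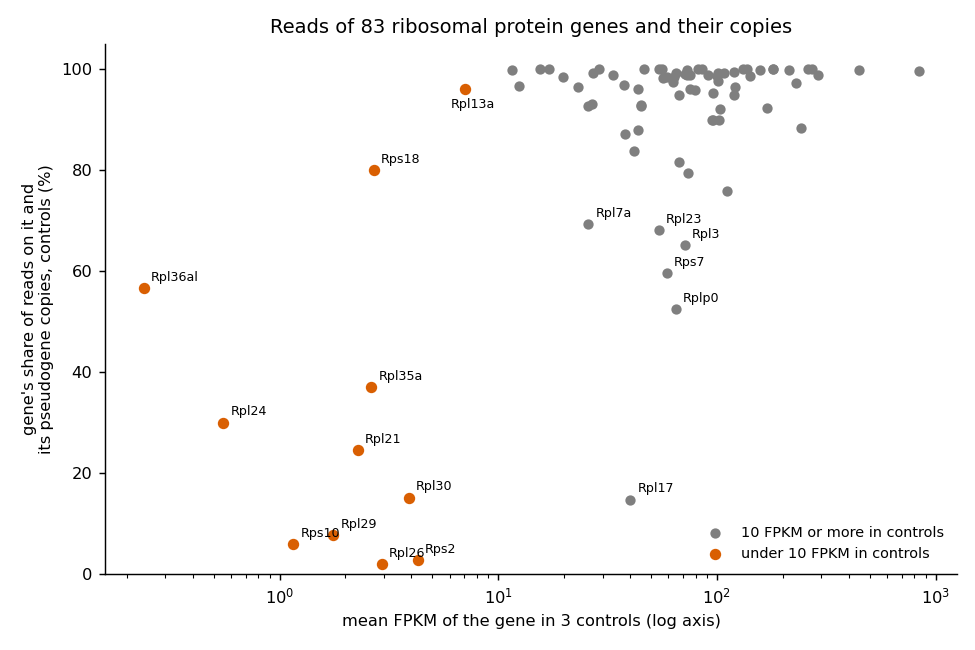
Share of the gene itself in the reads assigned to it and its pseudogene copies in the 3 controls (vertical axis, percent) against its mean FPKM in controls (horizontal log axis) for the 83 tested protein-coding members, each a point. Of the 11 genes under 10 FPKM, 8 lie under 50%, and Rpl17 is the only other gene there.

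Some low rows also overlap another annotated gene on the same strand, 4 of the 11 low members against 6 of the other 72. Rps10 overlaps RPS10-NUDT3, Rpl24 overlaps Gm28037, Rpl36al overlaps Gm49383 and Rpl13a overlaps Gm45713, and each of these 4 partners was listed at 0 in all libraries. How the authors treated reads that fit several places is not given in the sources used here. Values of low members are therefore given as values of their rows. Of all 93 members, 5 were not tested: Rpl3l, a paralog known from muscle, reached at most 0.64 FPKM in 1 library, Rpl39l and Rpl10l, known from testis, at most 0.34 FPKM and 0, and Rpl32l and Rps12l1 at most 0.90 FPKM and 0.

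The first comparison asks how ribosomal protein genes stood 1.5 h after treatment. The median member was 1.22 above control on the log2 scale (median of all 17664 tested genes 0.02), 87 of 88 were above 0, and 68 were more than 1 above. As deposited, the median of all tested genes lay between -0.008 and 0.009 from the control mean in each library. A value near 0 for all genes is therefore found at every time and says nothing of how other genes moved. The test passed 1 member (1.14%), Rps10, and no member fell, against 0.419% of all genes that rose and 0.136% that fell. With the same direction, 77 members had an unadjusted p under 0.05, but the share of all genes under this p was not counted. Standard errors had a median of 0.43. Without 1.5 h replicate 2, 87 members rose (98.9% of the members and 25.8% of all genes), and without 1.5 h replicates 1 and 3 no member rose (0.0962% of all genes) and the median was 0.03. The median was 0.72 without 1.5 h replicate 1 alone, 1.85 without replicate 2 and 0.62 with quantile normalization. All 3 libraries of 1.5 h lay above all controls for 31 of 88 members (14.6% of all genes). At this time, 2 of 3 libraries had much higher values and 1 did not.

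Rplp1 had 5944, 984 and 3333 FPKM in 1.5 h replicates 1, 2 and 3, against 888.7, 949.0 and 673.2 FPKM in controls. Its log2 change was 1.70 ± 0.54 (SE), adjusted p = 0.0951, with replicate 2 only slightly above the highest control. Rpl5 and Rpl11, which carry 5S ribosomal RNA into the large subunit and, when free, bind the p53 regulator Mdm2, had the same order of libraries. Rpl5 had 138.7, 43.2 and 95.9 FPKM in 1.5 h replicates 1, 2 and 3 and 44.0 to 45.3 FPKM in controls. Rpl11 had 275.4, 66.7 and 202.0 FPKM in the 1.5 h libraries and 55.0 to 62.1 FPKM in controls. Of this pair, Rpl11 had all 3 libraries above the controls and Rpl5 did not, and neither passed the test (adjusted p = 0.0889 for Rpl11 and 0.109 for Rpl5). Rps6, the target of the S6 kinases, had 420.0, 116.9 and 281.0 FPKM at 1.5 h against 115.4 to 129.3 FPKM in controls, with replicate 2 inside the control range.

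The 4 largest log2 changes at 1.5 h were those of Rps27rt (2.99), Rpl17 (2.08), Rpl22l1 (1.72) and Rplp1, and none passed the test (adjusted p between 0.0675 and 0.0998). Rpl17, of the exit tunnel of the large subunit, had 676.2, 50.2 and 151.8 FPKM in 1.5 h replicates 1, 2 and 3 against 37.3 to 41.9 FPKM in controls, all 3 above the controls. With the reads of its 25 copies its change was 1.27 ± 0.48, close to the median member. Rpl22l1, a paralog of Rpl22, had 81.0, 15.1 and 62.8 FPKM at 1.5 h and 9.98 to 15.1 FPKM in controls, and Rpl22 itself had 92.4, 29.9 and 62.8 FPKM at 1.5 h and 26.5 to 30.2 FPKM in controls. The 4 smallest were Rpl30 (-0.15), Rpl36al (0.35), Rpl7l1 (0.37) and Rps27 (0.55). For Rpl30, a large subunit protein, the row had 4.53, 1.68 and 3.19 FPKM at 1.5 h against 1.93, 2.46 and 7.31 FPKM in controls, so that 1 control was highest. With its 12 copies, which held 3467 control reads beside 618, Rpl30 was 1.42 ± 0.42 above control (adjusted p = 0.091).

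Rps27 and Rps27rt, whose transcripts are nearly identical, divided their reads differently from library to library. Rps27 held 69.1%, 36.02% and 45.3% of the reads of the pair in 1.5 h replicates 1, 2 and 3, against 76.3%, 85.5% and 90.2% in control replicates 1, 2 and 4. The share lay between 54.3% and 89.7% at 12 h and between 55.2% and 85.6% at 48 h, so it varied within each group. At 1.5 h it was below every control in all 3 libraries, and at 12 h and 48 h it overlapped the controls. The part of read assignment in these shares was not tested. Summed, the pair had 1051, 147 and 514 RPM (reads scaled to the same library total) at 1.5 h and 161 to 185 RPM in controls, the same order of libraries as the other members. The Rps27rt row alone had 869.3, 252.1 and 751.2 FPKM at 1.5 h and 104.7, 71.8 and 41.9 FPKM in controls (adjusted p = 0.0675). Other close copies had steadier shares. Rps3a1 held 72.5% to 78.2% of the reads of Rps3a1, Rps3a2 and Rps3a3, Rpl6 held 90.1% to 93.7% of those of Rpl6 and Rpl6l, and Rpl37 held 88.2% to 92.0% of those of Rpl37 and Rpl37rt, over all 12 libraries.

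**Figure D4:**
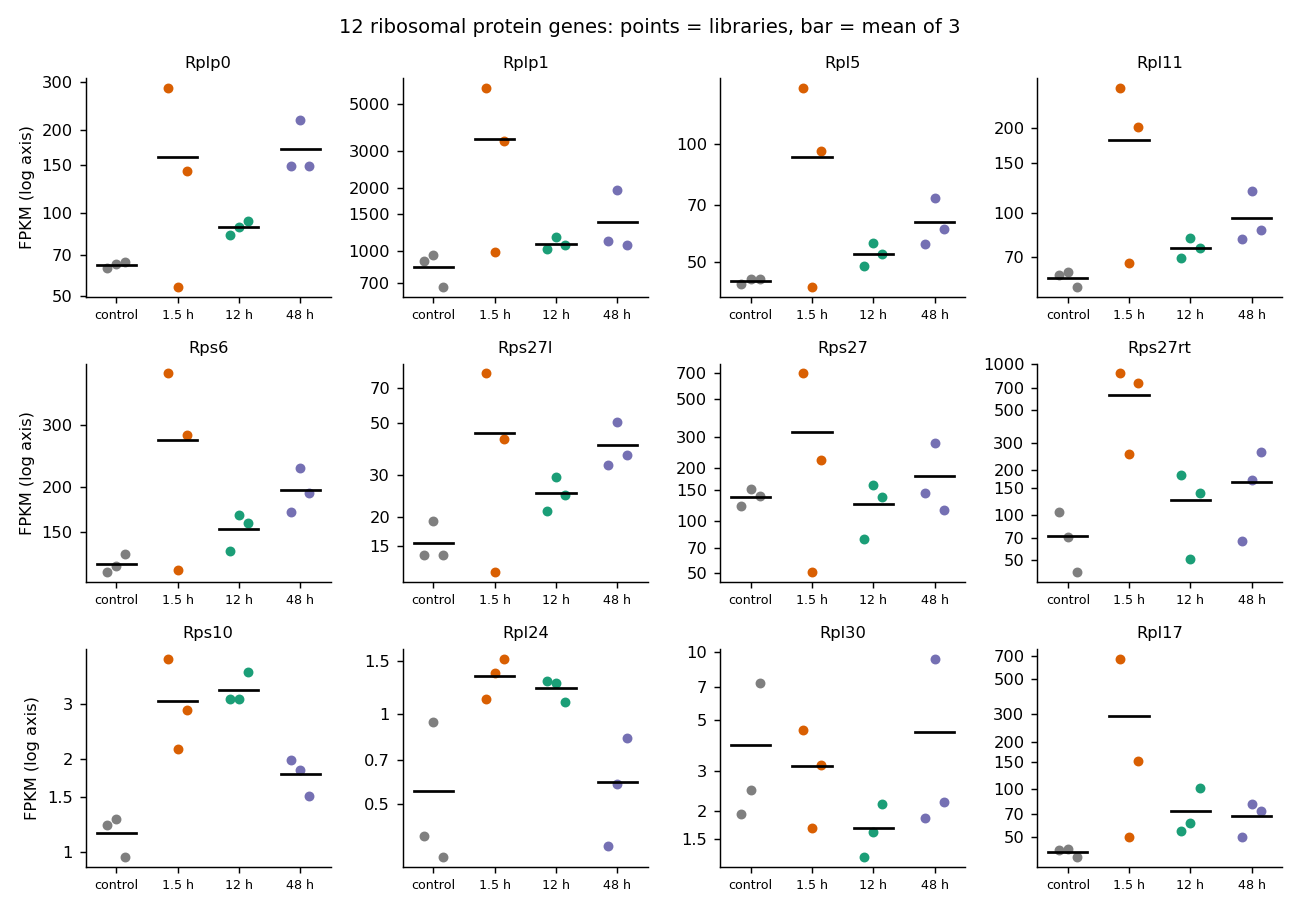
FPKM of 12 ribosomal protein genes on log axes, with a point for each library and a bar for the mean of 3 libraries, for control, 1.5 h, 12 h and 48 h in that order. For most genes 2 of the 3 points at 1.5 h stand far above the third. Rps10 and Rpl24 have all 3 points at 1.5 h and at 12 h above all controls, and so do other genes drawn, such as Rpl11 and Rpl17.

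At 12 h the members stood modestly above control in all 3 libraries. The median log2 change was 0.33 (all genes 0.00) and 83 of 88 were above 0, those below being Rpl30, Rpl36a, Rpl6l, Rps27 and Rps4l. Of the members, 2 rose (2.27%), Rps10 and Rpl24, and none fell, against 13.3% of all genes that rose and 7.9% that fell. With quantile normalization 2175 of all genes rose and 2431 fell at 12 h, against 2342 and 1395 as deposited, and the median member stood at 0.20. All 12 h libraries were above all controls for 58 of 88 members (28.2% of all genes). Rpl36a had 39.8 to 43.6 FPKM at 12 h and 43.9 to 46.2 FPKM in controls (adjusted p = 0.918). The shared fit takes its spread from the 1.5 h libraries too. Without 1.5 h replicates 1 and 3, 23 members rose at 12 h (26.1% of the members and 19% of all genes), without 1.5 h replicate 2, 9 rose (10.2% of the members and 18% of all genes), and with only the 12 h and control libraries in the fit, 52 rose (22.3% of all genes). Of the 51 tested large subunit names 13 were among the 23, and of the 37 small subunit names 10.

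Rps10, a protein of the head of the small subunit, had the largest change at 12 h on its own row. It had 3.11, 3.11 and 3.80 FPKM at 12 h against 1.23, 1.27 and 0.97 FPKM in controls (108, 116 and 140 reads against 49, 52 and 39), a log2 change of 1.01 ± 0.17 (adjusted p = 0.0018), and the groups did not overlap. At 1.5 h it had 4.20, 2.15 and 2.88 FPKM, all above the controls, and rose by 0.89 ± 0.17 (adjusted p = 0.048), a call kept in 4 of 15 alternatives and lost without any 1 control or without 1.5 h replicate 1 or 3. Its 48 h values of 1.99, 1.84 and 1.52 FPKM also lay above every control, and its change was 0.37 with adjusted p = 0.193, short of the threshold. The row, however, held 5.89% of the control reads of Rps10 and its 2 copies. Rps10-ps2, which matched at 98.99% over 496 bases, had 91.7, 103.8 and 98.1 FPKM at 12 h and 75.5 to 84.0 FPKM in controls. With the copies' reads added, the change of Rps10 at 12 h was 0.41 ± 0.42 (adjusted p = 0.55), near that of the median member, and the call at 1.5 h was lost as well (1.29, adjusted p = 0.0982).

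Rpl24, which joins the large subunit late and forms a bridge to the small one, had 1.29, 1.26 and 1.10 FPKM at 12 h against 0.39, 0.94 and 0.33 FPKM in controls. These were 20, 21 and 18 reads against 7, 17 and 6. The log2 change was 0.53 ± 0.16 (adjusted p = 0.0367). It had 1.12, 1.37 and 1.53 FPKM at 1.5 h, also above all controls, and 0.36, 0.58 and 0.83 FPKM at 48 h, inside the control range. With the reads of its 3 copies the change at 12 h was 0.87 ± 0.24 (adjusted p = 0.0252) and at 1.5 h 1.27 ± 0.24 (adjusted p = 0.048), with 1.39 to 2.42 FPKM in controls, 3.39 to 8.79 FPKM at 1.5 h and 3.84 to 4.45 FPKM at 12 h. The call at 12 h did not hold without control replicate 1 or 4 or without any of the 12 h libraries (adjusted p up to 0.13 over these). Rps13, a small subunit protein, had 40.4, 46.2 and 47.4 FPKM at 12 h against 21.4 to 31.7 FPKM in controls, without overlap, and its change of 0.73 ± 0.46 missed the threshold (adjusted p = 0.302).

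At 48 h all 88 members had a log2 change above 0, with a median of 0.62 (all genes -0.00) and a range of 0.04 to 1.36. The shared fit passed 0 members in either direction, against 7.5% of all genes that rose and 5.01% that fell. An unadjusted p under 0.05 was reached by 5 members, again without a count over all genes. All 48 h libraries were above all controls for 70 of 88 members (21.1% of all genes). As at 12 h, the count changed with the 1.5 h libraries in the fit. Without 1.5 h replicates 1 and 3, 59 members rose (67% of the members and 13.9% of all genes), of them 33 large subunit and 26 small subunit names. With only the 48 h and control libraries 48 rose (11.2% of all genes), and without 1.5 h replicate 2, 41 rose (12.3% of all genes). Replicate 3 was the highest 48 h library, and without it and 1.5 h replicates 1 and 3 together, 51 rose (11.5% of all genes). The median change without 48 h replicate 3 was 0.43.

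The stalk protein Rplp0, which anchors Rplp1 and Rplp2 on the ribosome, had the largest change at 48 h. It had 147.9, 218.2 and 147.7 FPKM in 48 h replicates 1, 3 and 4 against 62.8, 65.3 and 66.4 FPKM in controls, with all values more than 2 times those of the controls. Its change was 1.36 ± 0.44 (adjusted p = 0.0707), and without 1.5 h replicates 1 and 3 it rose with adjusted p = 0.000323. With its 4 copies, which held 5120 control reads beside 5642, the change was 1.37 ± 0.41 (adjusted p = 0.0521). Rplp2 had 75.8, 76.2 and 64.5 FPKM at 48 h against 43.0 to 48.6 FPKM in controls, and Rplp1 had 1108, 1937 and 1059 FPKM against 673.2 to 949.0 FPKM, both without overlap. Their changes were 0.62 for Rplp2 and 0.67 for Rplp1, smaller than that of Rplp0, though the difference between the stalk genes was not tested.

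Rps27l, a paralog of Rps27 known as a p53 target in human cells, had 33.1, 50.5 and 36.7 FPKM at 48 h against 13.7, 19.2 and 13.8 FPKM in controls. The change was 1.30 ± 0.51 (adjusted p = 0.127), and adjusted p was 0.00146 without 1.5 h replicates 1 and 3. Its transcript aligned with that of Rps27 over 254 bases at 76.38%, with no identical run longer than 11 bases. At 12 h it had 21.1, 29.6 and 24.9 FPKM, also above every control, and in 1.5 h replicates 1, 2 and 3 it had 80.9, 11.7 and 42.7 FPKM. Rps12, of the small subunit, had 73.2, 104.9 and 60.1 FPKM at 48 h against 30.4 to 35.4 FPKM in controls, a change of 1.18 ± 0.48 (adjusted p = 0.144, and 0.00169 without 1.5 h replicates 1 and 3). Rpsa, a small subunit protein also known as the laminin receptor, had 205.3, 303.5 and 193.5 FPKM at 48 h against 114.5 to 121.9 FPKM in controls. Rps4x, the X-linked form of a small subunit protein, had 164.5, 229.0 and 175.4 FPKM at 48 h, against a mean of 102.5 FPKM in controls. In both, the lowest 48 h library was above the highest control by far more than the control range.

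Other members of the core particle also had higher values at 48 h, without overlap with the controls. Rpl3, near the peptidyl transferase centre, had 85.5, 108.1 and 91.2 FPKM at 48 h against 70.5 to 72.5 FPKM in controls, and Rpl10, which completes the large subunit, 153.9, 210.2 and 162.0 FPKM against 102.1 to 114.2 FPKM. For Rpl41 the values were 423.1, 763.1 and 442.8 FPKM at 48 h against 252.9 to 292.0 FPKM in controls, and for Rpl39, at the exit tunnel, 81.0, 125.0 and 71.7 FPKM against 45.5 to 58.7 FPKM. Rpl36a had 57.0, 94.1 and 64.6 FPKM at 48 h against 43.9 to 46.2 FPKM in controls, which sets this time apart from its lower values at 12 h. Among the low rows, Rps18 had 4.20, 6.01 and 3.89 FPKM at 48 h against 2.34 to 3.07 FPKM in controls, and Rpl13a 9.29, 10.3 and 8.54 FPKM against 6.47 to 7.46 FPKM. The 4 smallest changes at 48 h were those of Rpl24 (0.04), Rpl30 (0.05), Rpl21 (0.07) and Rpl29 (0.19), all low rows. With their copies Rpl30, Rpl21 and Rpl29 had changes of 0.29, 0.30 and 0.54, Rpl24 remained the smallest of all members at 0.16, and with all copies added the median member stood at 0.62.

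Between treated times, the direction depended on which 1.5 h libraries were used. With all of them, the median log2 change at 12 h against 1.5 h was -0.89 over the 88 members. It was -0.44 without 1.5 h replicate 1, -1.48 without replicate 2 and -0.41 with quantile normalization. Without 1.5 h replicates 1 and 3 it turned to 0.29, with 82 of 88 members above 0, and 2 rose and none fell (7.98% of all genes rose). With all libraries 3 members fell and none rose, against 16.3% of all genes that fell and 16.9% that rose: Rps27rt (-2.31 ± 0.64, adjusted p = 0.0197), Rps19bp1 (-1.05 ± 0.32, adjusted p = 0.0281) and Rps3a3 (-0.77 ± 0.27, adjusted p = 0.0471). Rps27rt had 185.3, 50.9 and 139.7 FPKM at 12 h against 869.3, 252.1 and 751.2 FPKM at 1.5 h, without overlap, and 341 of the 374 bases of its transcript are those of Rps27. Rps19bp1, which binds RPS19 and the deacetylase SIRT1 and is not a ribosomal protein, had 16.3, 19.8 and 18.6 FPKM at 12 h against 68.7, 20.9 and 40.2 FPKM at 1.5 h. Rps3a3, a pseudogene of Rps3a1, had 3.85, 3.66 and 4.03 FPKM at 12 h against 12.0, 4.31 and 7.19 FPKM at 1.5 h. Without 1.5 h replicate 2, 83 members fell (28% of all genes), and without 1.5 h replicate 1 or 3, or without 12 h replicate 2, none.

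The 48 h libraries were a median of 0.27 above the 12 h libraries, and 0.10 above them without 48 h replicate 3, with 62 of 88 members above 0. Here 1 member fell and none rose, against 9.73% of all genes that fell and 5.88% that rose: Rps10, by 0.64 ± 0.17 (adjusted p = 0.026) on its own row, a call lost without any 1 of the 12 h libraries or without 48 h replicate 3 or 4, and with a change of 0.24 (adjusted p = 0.745) with its copies. Against 1.5 h, the 48 h libraries had a median change of -0.60, and 1 member fell and none rose (8.87% and 8.91% of all genes). This was Rpl24, by 0.56 ± 0.16 (adjusted p = 0.035, lost without 1.5 h replicate 3 or without 48 h replicate 1 or 3), and by 1.12 ± 0.24 with its copies (adjusted p = 0.00978). The median was -0.15 without 1.5 h replicate 1, -1.21 without replicate 2 and -0.03 with quantile normalization, where 38 of 88 members were above 0. Without 1.5 h replicates 1 and 3 it turned to 0.54, and 24 members rose and none fell (7.25% of all genes rose).

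Proteins of the ribosome outside the name rule had similar values. Fau, which encodes small subunit protein eS30 fused to a ubiquitin-like protein, had 189 to 227 FPKM in controls and 1140, 236 and 747 FPKM in 1.5 h replicates 1, 2 and 3, then 262 to 312 FPKM at 12 h and 252 to 405 FPKM at 48 h. Rack1, a scaffold on the small subunit, had 30.1 to 31.4 FPKM in controls, 123, 34.6 and 83.1 FPKM at 1.5 h, 40.9 to 46.2 FPKM at 12 h and 50.6 to 72.3 FPKM at 48 h. Every treated library was above every control for both genes, and neither passed the test against control.

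Other lists were compared with the same fit. In it 13.3% of all genes rose and 7.9% fell at 12 h, and 7.5% rose and 5.01% fell at 48 h. Among 18 translation factors and other TOP mRNAs, 3 rose and none fell at 12 h, with a median of 0.22, and 1 rose at 48 h, with a median of 0.35. Pabpc1, the cytoplasmic poly(A)-binding protein, had 28.8 ± 2.4 FPKM at 12 h and 17.3 ± 1.4 FPKM in controls (log2 change 0.70 ± 0.12, adjusted p = 0.00219), and 29.9 ± 2.8 FPKM at 48 h (0.76 ± 0.12, adjusted p = 0.00232). Snhg1, a host gene of small nucleolar RNAs, had 7.73 ± 0.87 FPKM at 12 h and 2.45 ± 0.49 FPKM in controls (1.34 ± 0.33, adjusted p = 0.015). Of 24 ribosome biogenesis genes, 5 rose at 12 h and 2 at 48 h, and none fell. Their median was 0.255 at 12 h, with 21 of 24 above 0, and 0.277 at 48 h, with 22 of 24 above 0. Nolc1, a nucleolar chaperone, had 22.3 ± 1.0 FPKM at 12 h and 11.7 ± 0.8 FPKM in controls (0.88 ± 0.11, adjusted p = 0.000307), and Nop58, a core protein of box C/D particles, 5.94 ± 0.85 FPKM at 12 h and 3.03 ± 0.01 FPKM in controls (0.78 ± 0.12, adjusted p = 0.001). At 48 h Ncl, the nucleolar protein nucleolin, rose to 25.3 ± 0.7 FPKM, against 19.3 ± 0.4 FPKM in controls (0.38 ± 0.09, adjusted p = 0.0219).

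Other lists of mostly short, widely expressed genes are given beside the ribosomal protein genes. At 1.5 h the median of the cytosolic ribosomal proteins was 1.22, beside 1.15 for 83 nuclear oxidative phosphorylation genes, 0.80 for 77 mitochondrial ribosomal proteins and 0.64 for 38 proteasome genes. At 12 h it was 0.33, with 83 of 88 genes above 0, beside -0.03 with 38 of 83, -0.11 with 26 of 77 and 0.10 with 25 of 38. At 48 h it was 0.62, beside 0.23, 0.24 and 0.41. Of the oxidative phosphorylation genes 1 rose at each time and 1 fell at 12 h, and of the proteasome genes 1 rose at 12 h and 1 at 48 h. Of all genes, 0.419%, 13.3% and 7.5% rose at 1.5 h, 12 h and 48 h, and 7.9% fell at 12 h. Without 1.5 h replicates 1 and 3, 23 of 88 cytosolic ribosomal proteins rose and none fell at 12 h, beside 2 that rose and 3 that fell of the oxidative phosphorylation genes, 2 and 14 of the mitochondrial ribosomal proteins, and 2 and 2 of the proteasome genes. At 48 h in that fit 59 of 88 rose and none fell, beside 2 and 1 of 83, 10 and 0 of 77, and 23 and 0 of 38 in the same lists, so the proteasome genes had a share near that of the cytosolic ribosomal proteins. Of the translation factors and other TOP mRNAs 6 and 11 of 18 rose at 12 h and 48 h in that fit, and of the ribosome biogenesis genes 8 and 10 of 24. In the same fit 19% of all genes rose at 12 h and 13.9% at 48 h, and 2859 and 2228 of the 17664 genes fell. Of the mitochondrial ribosomal proteins 1 rose at 12 h and 1 at 48 h, and this was Mrps6 at both times, with 28.9 ± 1.5 FPKM at 48 h and 8.42 ± 1.28 FPKM in controls (1.68 ± 0.27, adjusted p = 0.00221). Median deposited lengths were 1380 bases for oxidative phosphorylation and 2260 for mitochondrial ribosomal proteins, on both sides of the 1659 of the cytosolic ones. Removing each library's trend on length gave medians of 1.09, 0.24 and 0.57 for the ribosomal protein genes at 1.5 h, 12 h and 48 h. No test of the difference between lists was made.

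**Figure D5:**
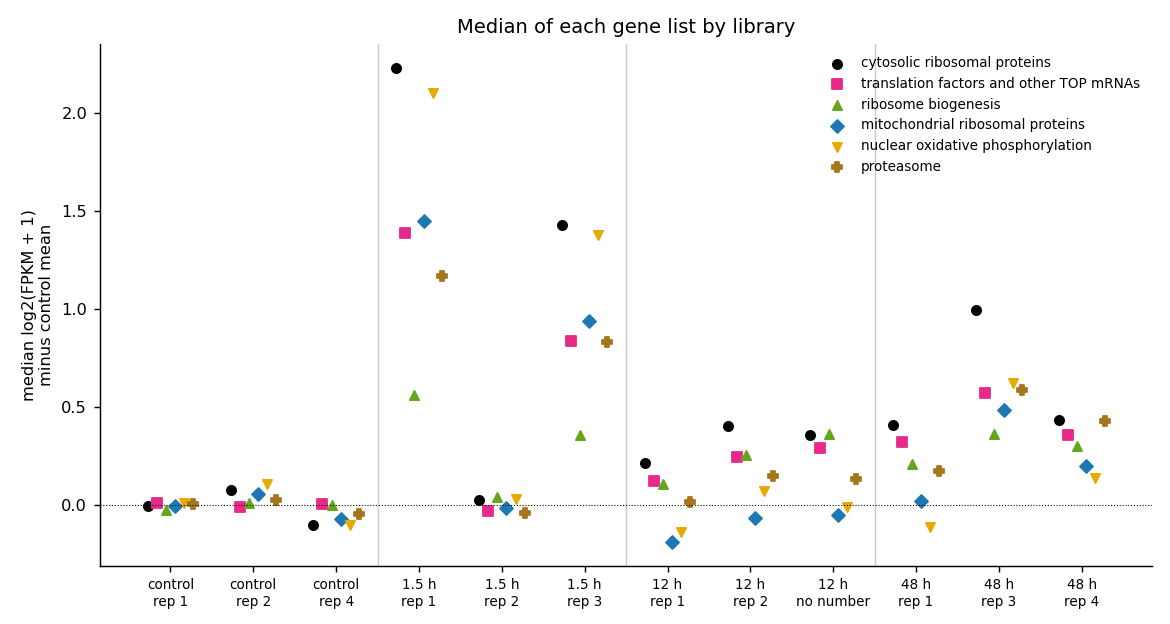
Median over the genes of each list of the difference from the control mean, on the log2(FPKM + 1) scale, for each of the 12 libraries. In 1.5 h replicates 1 and 3 every gene list drawn stands above 0. At 12 h the cytosolic ribosomal proteins lie between 0.21 and 0.41 and the mitochondrial ribosomal proteins between -0.19 and -0.05. The translation factors and other TOP mRNAs lie between 0.123 and 0.295 at 12 h, and the ribosome biogenesis genes between 0.108 and 0.363.

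Within the members, changes were also set beside length and the annotated start. The correlation of log2 change with log2 length over the 88 genes was -0.266 at 1.5 h, 0.006 at 12 h and 0.035 at 48 h, given as descriptions. Of the 64 tested members with a promoter window, the 14 with a pyrimidine start had median changes of 1.12, 0.32 and 0.52 at 1.5 h, 12 h and 48 h, and the 50 without had 1.23, 0.33 and 0.65. This split cannot tell mRNAs with a TOP motif from those without, since an annotated start a few bases off hides the motif.

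Summed cell type markers also differed between the groups. Summed markers of microglia (6 genes, 5 above 1 FPKM in all libraries) were 80.6 to 90.8 FPKM in controls, 86.8 to 212 FPKM at 1.5 h, 72.8 to 75.8 FPKM at 12 h and 261 to 309 FPKM at 48 h. Those of astrocytes were 401 to 426, 392 to 453, 450 to 498 and 241 to 280 FPKM at the same times, and those of endothelium 21.0 to 24.2, 14.4 to 24.8, 47.4 to 60.5 and 45.0 to 70.7 FPKM. Oligodendrocyte markers summed to 777 to 928 FPKM in controls and 1395 to 1720 FPKM at 12 h, and choroid plexus markers varied from library to library, between 32.9 and 993 FPKM at 48 h alone. T and B cell markers summed to at most 0.19 FPKM in controls and to 4.10 to 10.5 FPKM at 12 h, with Cd3d at 0 in 8 of 12 libraries. Their part in the ribosomal protein values was not tested, and in tissue RNA fewer cells of a type and less RNA per cell cannot be told apart. Outside the members, the genes whose log2 values over the 12 libraries were closest to the members' median, of 13629 with a mean of at least 1 FPKM, were Eif3i (r = 0.995), Gm9794 (0.994), Eef1b2 (0.994), Psmb4 (0.993) and Bola2 (0.992). Gm9794 is the top pseudogene copy of Rpl23, with 99.76% identity over 423 bases.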

How the data were processed

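The deposited table holds FPKM values that the authors made for 12 libraries, with gene lengths and coordinates, per the file headers. The submitters' processing notes name Bowtie 0.12.2 and the build mm8, but 98.33% of 54409 identifiers shared with GENCODE M21 have its GRCm38 bounds, so positions are given as GRCm38. Counting tool, strandedness and the handling of reads that fit several places are not given in the sources used here. FPKM times length was a whole multiple of a step for 100% of values (within 0.05), which gave reads per gene, and the authors' scaling was kept. The scaling total was 1.215e+07, 1.633e+07 and 1.399e+07 in 1.5 h replicates 1, 2 and 3. Their reads were 15709617, 16594959 and 15348579. In controls the total was 1.731e+07 to 1.765e+07 beside 16306254 to 17103868 reads. A total below the reads raises every FPKM of a library, while shares of reads do not depend on it. Its part in the member values was not tested.

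The 17664 genes that exceeded 0.5 FPKM in 3 or more of 12 libraries entered 1 limma fit (version 3.58.1, R 4.3.3) of 4 groups on log2(FPKM + 1), with a trend of variance on level and 8 residual and 3.09 prior degrees of freedom. Adjustment was Benjamini-Hochberg over all these genes, at a false discovery rate of 0.05. Errors are the standard error (SE) of the fit or the SD over libraries. The fit was tried on simulated data with the same spread in every group and changes at 12 h only. Pairs of the real 1.5 h libraries differed by 56.3 to 272 times counting noise, a spread that the simulation lacks, so it says nothing about that group. Since no label says that each library came from its own animal, p-values measure only spread between libraries, which may be technical.

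The column of 1 library at 12 h has a replicate number that is missing from the titles, and it was used without a number. Library pairs within groups had correlations of 0.919 to 0.987 and differed by at least 8.69 times counting noise. Same-numbered libraries did not deviate together (11 pairs, median r = -0.004, range -0.264 to 0.156), so numbers were not used as pairs. The table has 0 columns of other samples. Sequences come from RefSeq windows, and copies from blastn searches of GENCODE M21 transcripts, with each pseudogene given to its best member.

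The members, gene lists and tests were chosen with earlier results of these data known. The genes named are, by rule, at each time the 4 largest and 4 smallest changes and up to 10 called members, between times up to 3 rises and 3 falls past the threshold, a fixed set of members, up to 2 rising and 2 falling genes of other lists, and the 5 genes most like the members' median. Rps15, Rpl36, Rpl26, Rps2, Rpl6, Rpl37, Rps3a1, the genes of the low and overlapping rows, the genes whose starts are printed and the copies were named after their values were seen.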

Additional observations from a re-analysis of the deposited data

Results flagged for a closer look

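In 5 cases the change against control differed between 2 treated times by the test of the difference itself (limma, adjusted over all genes). At 12 h against 1.5 h the log2 difference was -2.31 for Rps27rt, -1.05 for Rps19bp1 and -0.77 for Rps3a3, and each call is lost without 1.5 h replicate 1 or 3. For Rps10 it was -0.64 at 48 h against 12 h, with 86, 78 and 66 reads at 48 h and 108, 116 and 140 reads at 12 h. For Rpl24 it was -0.56 at 48 h against 1.5 h, with 7, 11 and 16 reads at 48 h and 14, 23 and 22 reads at 1.5 h. No explanation was tested.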

How the results depend on the processing

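The number of ribosomal protein genes called depends mainly on which 1.5 h libraries share the fit, and the alternatives with copies added, voom, and libraries of other groups left out were chosen after seeing the data. In the order 1.5 h, 12 h and 48 h against control, then 12 h against 1.5 h, 48 h against 12 h and 48 h against 1.5 h, the main counts were 1, 2, 0, 3, 1 and 1. Counts against control are all rises, and counts between treated times pool rises and falls and are all falls unless said otherwise. With a pseudocount of 0.1 they were 1, 2, 0, 3, 1 and 0. Without a filter they were 0, 1, 0, 1, 1 and 0, with quantile normalization 1, 1, 11, 3, 3 (2 rises) and 4 (2 rises), and with the length trend removed 1, 1, 0, 5, 1 and 1. Of all 17664 genes, 1444 rose at 48 h against control with quantile normalization. With the length trend removed, 3390 fell at 12 h against 1.5 h. With the fit limited to the 2 groups compared they were 0, 52, 48, 0, 9 (7 rises) and 0, and with voom on recovered reads 0, 1, 0, 6, 1 and 1. In the fits of 2 groups, 3936 of all genes rose at 12 h and 1987 at 48 h against control. At 48 h against 12 h, 1687 rose and 2304 fell. With voom, 2770 fell at 12 h against 1.5 h. With the replicate number as a block, 0, 1, 0, 0, 0 and 0 were called, and since the numbers did not pair the libraries this says nothing of the size of the effects. Without 1.5 h replicates 1 and 3 the counts were 0, 23, 59, 2 (all rises), 16 (15 rises) and 24 (all rises), so that the called direction between treated times turned, and without these and 48 h replicate 3 together, 51 at 48 h. With the reads of pseudogene copies added they were 1, 1, 0, 5, 0 and 1, and 2873 of 17446 genes fell at 12 h against 1.5 h. Leaving out each library of the groups compared gave 0 to 87, 1 to 2, 0 to 0, 0 to 83, 0 to 1 and 0 to 80. Leaving out 1.5 h replicate 2, of another group, gave 9 at 12 h, 41 at 48 h and 8 (6 rises) at 48 h against 12 h. Without that library, 2169 of all genes rose and 2771 fell at 48 h against 12 h, and 4387 fell at 48 h against 1.5 h. The median log2 change at 1.5 h was 0.0299 without 1.5 h replicates 1 and 3, against 1.22, and lay between 0.72 and 1.85 with 1 library left out. With quantile normalization the medians were 0.62, 0.20, 0.55, -0.41, 0.36 and -0.03, against 1.22, 0.33, 0.62, -0.89, 0.27 and -0.60. At 1.5 h 46 members then had an unadjusted p under 0.05, against 77, both counted for the members only. With the replicate block the medians at 48 h were 0.33 against control and 0.02 against 12 h. Rps10 at 48 h against 12 h reversed to 0.24 with its copies added, and its rise at 12 h held in 15 of 16 alternatives (adjusted p 0.00025 to 0.55). Over the named genes, 1422 of 1659 values kept direction and side of the threshold, 133 newly passed it, 63 no longer did, 40 changed sign without a call and 1 reversed. edgeR and DESeq2 on recovered reads were planned and not run. The cause of the shifts was not tested. Rows of under 30 reads, such as Rpl24 and Rpl36al, are limited by depth.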
